A study of Homo sapiens with 3 samples.

Results

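The 10 genes described here mark or drive the mesenchymal state of neuroblastoma, and were followed in SK-N-BE(2), a human neuroblastoma cell line with amplified MYCN. They were chosen by name: SNAI2, TWIST1, PRRX1, YAP1, WWTR1, VIM, CD44, NOTCH2, NOTCH3 and FN1. Each of the 10 had 1 row among the 34520 rows of the table, and 9 of them averaged 1 FPKM or more over the 3 libraries and were considered, as were 12433 rows in all. By definition FPKM are fragment counts divided by transcript length and by library size, so levels of different genes can be set side by side. How fragments were counted here, and over which transcript lengths, is not stated. The groups were control cells, cells given arsenic trioxide (ATO) at 2 µM for 12 h and cells given ATO at 4 µM for 12 h, with 1 library each. The control values are headed 12 h as well. The study put ATO forward as a compound that keeps N-Myc, the product of MYCN, off DNA, and the comparisons ask how transcripts stood at each dose. All cells were of the same line and grown in the same serum-containing medium, and what vehicle the control cells received is not given in the sources used here.

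Neuroblastoma cells occur in an adrenergic state, close to sympathetic neuroblasts and held by factors such as HAND2 and GATA3, and in a mesenchymal state, which is more motile and more resistant to chemotherapy. Cells can pass between the states, and forced PRRX1 or active NOTCH3 is known to move adrenergic cells towards the mesenchymal one. SNAI2 and TWIST1 are factors of the epithelial to mesenchymal transition (EMT), while YAP1 and WWTR1 (the gene of TAZ) encode paired coactivators that the Hippo kinases restrain and that act through TEAD factors. Vimentin, CD44 and fibronectin, from VIM, CD44 and FN1, are the filament, the surface receptor and the matrix protein by which such cells are often recognised.

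Since each group was a single library, no difference could be set against replicate spread, and nothing was tested. All log2 folds were computed after adding 1 FPKM, so those of low genes are understated, and a gene passed the size rule with a log2 fold of 1 or more in either direction. Summed FPKM ran between 246878 and 262632 per library. The spacing of low values put the depth at 35.4 to 36.8 counted units (reads or fragments, which is not stated) per FPKM and kilobase, alike in the 3 libraries. Of 23 listed adrenergic genes 20 averaged 1 FPKM or more and had between 5.39 FPKM (DBH) and 136 FPKM (PHOX2A) in control cells, while the 3 others had 0.74 to 1.79 FPKM there, so these mesenchymal genes were read in cells that carried the adrenergic program. Markers of other cell types were low: the sum over 6 endothelial genes was at most 2.73 FPKM in any library, over 4 epithelial genes at most 2.75 FPKM, and over 5 Schwann cell precursor genes at most 2.46 FPKM. Leukocyte genes summed to 1.03 FPKM in the control, 5.12 FPKM at 2 µM and 5.50 FPKM at 4 µM, and CD68 made up most of the sum with ATO, while PTPRC had at most 0.10 FPKM. Of 8 listed genes that fibroblasts share with mesenchymal cells, 5 averaged 1 FPKM or more, and these were lower at both doses. The 8 summed to 124 FPKM in the control, 74.3 FPKM at 2 µM and 37.4 FPKM at 4 µM. Below the filter, FAP had at most 0.06 FPKM. COL1A2 (0.39, 0.60 and 0.46 FPKM in the same order) and POSTN (0.17, 0.71 and 0.51 FPKM) were not lower with ATO. In these bulk samples, fewer cells of a type and less RNA per cell cannot be told apart.

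At 4 µM the 10 genes did not move as 1 group. WWTR1, YAP1 and CD44 were higher than in the control, at 2.44, 2.21 and 2.00 times its FPKM. TWIST1 was lower, at 0.406 times, and NOTCH3 was lower at 0.591 times. SNAI2, VIM, FN1 and NOTCH2 lay between 0.754 and 1.09 times the control, and PRRX1 was close to 0 throughout. By the size rule WWTR1 was higher and TWIST1 lower, 2 of 9 considered genes, beside 9.46% of all considered rows (4.19% higher and 5.27% lower). The median log2 fold of the 9 genes was -0.15, near the -0.13 of all considered rows. Scaling each library by the median ratio of its rows to their mean over libraries (median of ratios) brought the median of all rows at 4 µM to -0.0033, and list counts that it changed are given beside the counts as deposited. Shares of all rows were counted for values as deposited only. A looser rule of 1.5-fold took in YAP1, CD44 and NOTCH3 too, 5 of 9 beside 27.9% of rows (3 higher beside 10.6% and 2 lower beside 17.4%). At 2 µM none of the 9 passed the size rule, beside 2.06% of rows (1.16% higher and 0.901% lower), and the median was -0.23, against 0.01 for all rows. WWTR1 and CD44 were higher by 1.5-fold there and no member was lower, 2 of 9 beside 9.01% of rows (4.69% higher and 4.32% lower).

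**Figure D1:**
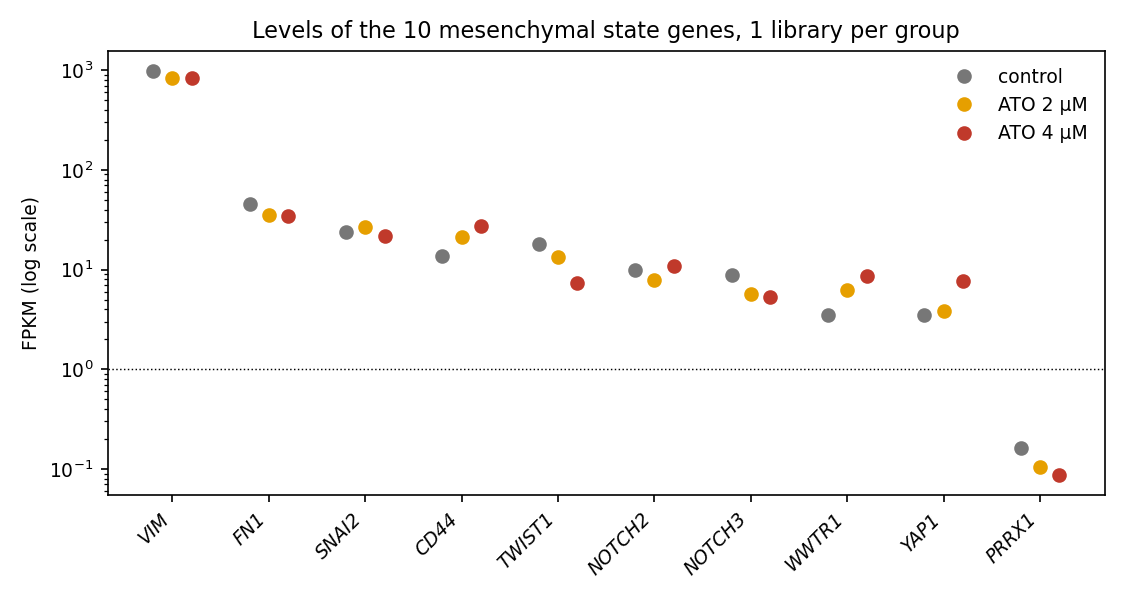
FPKM of each of the 10 genes on a log axis, 1 point per library (control, ATO 2 µM and ATO 4 µM from left to right within a gene), ordered by mean level. The dotted line marks 1 FPKM. VIM stands at 835 FPKM or more in each library and PRRX1 at 0.161 FPKM or less, while the points of CD44, WWTR1 and YAP1 climb with dose and those of TWIST1 descend.

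The levels spanned several orders of magnitude. VIM had rank 19 of all rows in control cells, rank 26 with 2 µM and rank 28 with 4 µM, and it held 88.5% of the summed FPKM of the 10 genes in control cells, 87.4% with 2 µM and 87.2% with 4 µM. FN1 came next in every library. In the control the order after FN1 was SNAI2, TWIST1, CD44, NOTCH2, NOTCH3, WWTR1, YAP1 and PRRX1. At 4 µM it was CD44, SNAI2, NOTCH2, WWTR1, YAP1, TWIST1, NOTCH3 and PRRX1, so TWIST1 went to the 8th place of the 10 and CD44 to the 3rd. WWTR1 and YAP1 were next to each other in the control at 3.49 and 3.48 FPKM, and without replicates such neighbours cannot be ordered.

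The 3 genes that were highest relative to control include the paired coactivators, so their promoter windows are shown. RefSeq (GRCh38.p14) gave windows from 250 bases before to 50 bases after the annotated start for 8 of the 10 genes, 9 windows in all, with 2 for WWTR1. Both strands were searched for the E-box CANNTG, which factors of the TWIST1 and SNAI2 kinds are known to bind, for its form CACGTG, the classic letters of MYC proteins (a subset of CANNTG), for GGAATG of TEAD factors and for TGGGAA of RBPJ, the DNA-binding partner of Notch. Capitals mark the matches.
YAP1 (chr11:102110197-102110496, plus strand): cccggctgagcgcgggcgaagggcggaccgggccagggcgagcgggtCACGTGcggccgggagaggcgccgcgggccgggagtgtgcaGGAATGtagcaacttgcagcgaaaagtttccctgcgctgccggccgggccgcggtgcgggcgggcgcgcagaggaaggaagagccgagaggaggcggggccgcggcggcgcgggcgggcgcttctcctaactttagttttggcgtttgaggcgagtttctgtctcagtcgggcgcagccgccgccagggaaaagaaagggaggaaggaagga
WWTR1, upstream start (chr3:149703224-149703523, minus strand): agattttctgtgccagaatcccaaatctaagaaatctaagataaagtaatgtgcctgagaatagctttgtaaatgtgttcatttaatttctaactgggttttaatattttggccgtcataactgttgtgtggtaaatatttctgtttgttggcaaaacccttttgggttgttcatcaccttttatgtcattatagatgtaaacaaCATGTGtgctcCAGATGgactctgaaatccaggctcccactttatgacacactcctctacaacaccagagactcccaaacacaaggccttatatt
WWTR1, downstream start (chr3:149657976-149658275, minus strand): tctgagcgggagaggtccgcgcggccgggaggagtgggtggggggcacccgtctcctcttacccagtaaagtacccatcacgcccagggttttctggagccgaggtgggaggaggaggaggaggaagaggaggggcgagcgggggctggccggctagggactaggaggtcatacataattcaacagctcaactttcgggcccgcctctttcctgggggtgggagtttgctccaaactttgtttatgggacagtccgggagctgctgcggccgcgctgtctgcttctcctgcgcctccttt

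The YAP1 window held CACGTG 203 bases before the start and GGAATG 162 bases before it. The upstream WWTR1 window held CATGTG at 45 bases before the start. It held a further E-box with the letters CAGATG at 34 bases before it, and the downstream window held none of the letters searched. The windows of CD44, VIM, FN1, NOTCH2, NOTCH3 and PRRX1 held none of these letters. Among all 35116 windows of this length in the table, 68.7% held CANNTG, 7.26% CACGTG, 14.0% GGAATG and 24.0% TGGGAA. Of the 9 member windows, 2 held CANNTG. A match is a description of letters, and no binding was measured.

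Among the transcription factors, SNAI2 and TWIST1 parted with dose. SNAI2, a zinc finger repressor of epithelial genes, had 24.1 FPKM in the control, 26.7 FPKM at 2 µM and 21.6 FPKM at 4 µM. Its log2 fold at 4 µM was -0.15, close to the -0.13 of the median row. TWIST1, a basic helix-loop-helix factor that is also known as a partner of amplified MYCN in neuroblastoma, had 18.1 FPKM in control cells, 13.3 with 2 µM and 7.37 with 4 µM. It was lower at each step, with log2 folds of -0.42 for 2 µM against control, -0.78 for 4 µM against 2 µM and -1.19 for 4 µM against control, and 3.04% of considered rows lay lower at 4 µM. The ratio of SNAI2 to TWIST1 within a library, which no scaling between libraries can alter, was 1.33 in control cells, 2.00 with 2 µM and 2.93 with 4 µM. MYCN was lower too, at 832 FPKM in control cells, 412 with 2 µM and 197 with 4 µM, and TWIST1 amounted to 0.0218 of its level in control cells, 0.0324 with 2 µM and 0.0374 with 4 µM.

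PRRX1, the homeobox factor, had 0.161 FPKM in the control, 0.104 FPKM at 2 µM and 0.0872 FPKM at 4 µM. The median length of its annotated coding transcripts in GENCODE 29 is 3501 bases. That length and the inferred depth give about 20.2 counted units in control cells, 13.4 with 2 µM and 10.8 with 4 µM. With counts this low and 1 library per group, no difference in PRRX1 can be judged. Its paralog PRRX2 was the more abundant by far, at 32.0 FPKM in control cells, 33.0 with 2 µM and 14.0 with 4 µM, and its log2 fold at 4 µM was -1.14.

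Of 10 other EMT factors 7 were considered, with a median log2 fold of -0.26 at 4 µM. Beside 4.19% of all considered rows higher and 5.27% lower, none was higher and 2 were lower. These were PRRX2 and TCF4, a helix-loop-helix partner of TWIST1 (4.51 FPKM at 4 µM, against 10.6 FPKM in the control, log2 fold -1.07). Neither passed after median-of-ratios scaling (-0.99 and -0.94). SNAI1, the paralog of SNAI2, had a log2 fold of -0.75, and the forkhead gene FOXC2 one of 0.77 from a low level of 1.15 FPKM in the control. FOXC2 passed with a pseudocount of 0.1 (1.15) and as TPM (1.11), where the 1 TPM added is also less than 1 FPKM. The zinc finger repressor gene ZEB1 had 17.8 FPKM at 4 µM and 10.9 FPKM in the control, a log2 fold of 0.66, and ZEB2 had 7.09 FPKM at 4 µM and 6.32 FPKM in the control, a log2 fold of 0.14. TWIST2 lay below the filter, at 0.61 FPKM at 4 µM and 0.81 FPKM in the control.

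**Figure D2:**
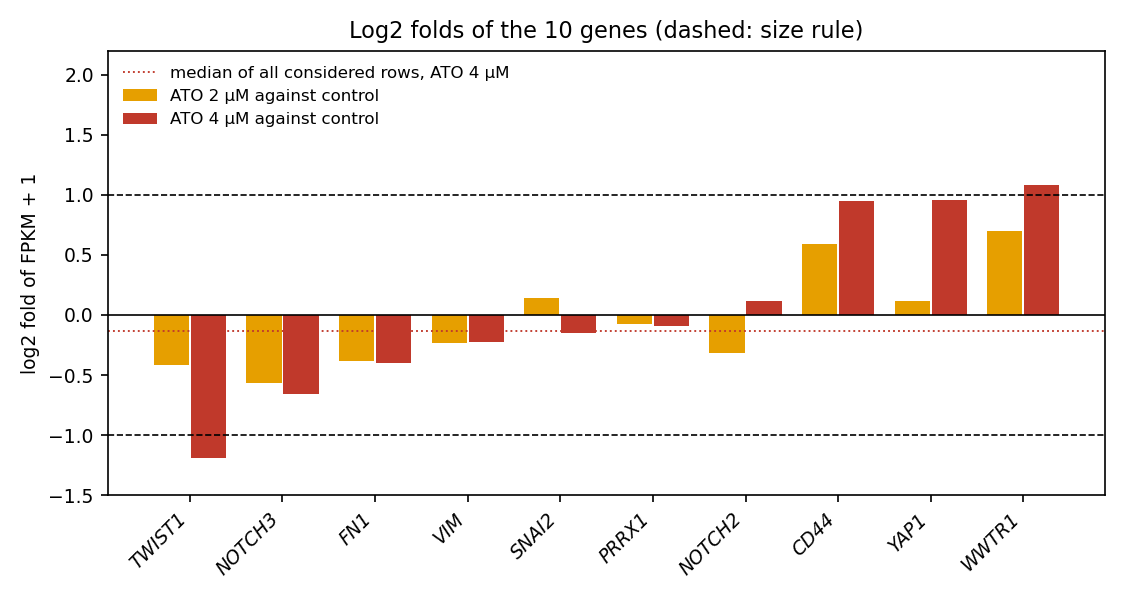
Log2 fold of FPKM + 1 of the 10 genes for ATO 2 µM and ATO 4 µM against the control, ordered by the 4 µM value. Dashed lines mark the size rule and the dotted line the median of all considered rows at 4 µM (-0.13). TWIST1 (-1.19) and WWTR1 (1.08) pass the rule at 4 µM, CD44 and YAP1 (0.95 each) stop short of it, and no gene passes at 2 µM.

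The Hippo coactivators were both higher at 4 µM, and they differed at 2 µM. WWTR1 had 3.49 FPKM in the control, 6.31 FPKM at 2 µM and 8.53 FPKM at 4 µM. Its log2 folds against control were 0.70 and 1.08. YAP1 had 3.48 FPKM in control cells, 3.85 with 2 µM and 7.68 with 4 µM. Its log2 folds were 0.11 and 0.95 against control, and 0.84 between the doses. WWTR1 was thus already higher at the lower dose, whereas YAP1 was near its control level there. The ratio of WWTR1 to YAP1 within a library was 1.00 in control cells, 1.64 with 2 µM and 1.11 with 4 µM. YAP1 missed the size rule narrowly and passed it with a pseudocount of 0.1 (1.12) and with median-of-ratios scaling (1.08). The YAP1 pseudogene row YAP1P1 had at most 0.263 FPKM and the antisense row WWTR1-AS1 at most 0.0481 FPKM.

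Together YAP1 and WWTR1 amounted to 6.97 FPKM in the control, 10.2 FPKM at 2 µM and 16.2 FPKM at 4 µM. Their partners TEAD1 to TEAD4 summed to 71.7 FPKM in control cells, 67.2 with 2 µM and 72.7 with 4 µM. Coactivator transcript per TEAD transcript was 0.0972 in control cells, 0.151 with 2 µM and 0.223 with 4 µM. Within the TEAD family, TEAD1 was the most abundant (40.2 FPKM at 4 µM and 36.6 FPKM in the control, log2 fold 0.13). TEAD3 had a log2 fold of 0.76, TEAD2 of -0.48 and TEAD4 of -0.20.

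Of 21 genes of Hippo kinases, adaptors and TEAD factors, 20 were considered, with a median log2 fold of 0.18 at 4 µM. By the size rule 2 were higher and 1 lower, beside 4.19% and 5.27% of all considered rows. LATS2, the kinase gene that is itself a target of YAP1, had 3.27 FPKM at 4 µM, against 0.81 FPKM in the control (log2 fold 1.24). AMOTL2, an adaptor that holds YAP1 back, had 15.4 FPKM at 4 µM, against 7.11 FPKM in the control (log2 fold 1.02). Its relative AMOT had 2.46 FPKM at 4 µM, against 6.89 FPKM in the control (log2 fold -1.19). The kinase gene STK4 had a log2 fold of 0.91, and it passed after median-of-ratios scaling (1.04), which made 3 higher and 1 lower. With the filter raised to 10 FPKM the median was -0.14.

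Genes known as YAP and TAZ targets went both ways, with 4 of 18 considered higher and 2 lower, beside 4.19% and 5.27% of all considered rows. Their median was 0.09, and after median-of-ratios scaling 5 were higher and 2 lower. The matricellular gene CCN2, a classic target, had 19.1 FPKM without ATO, 41.5 FPKM at 2 µM and 45.01 FPKM at 4 µM, with log2 folds of 1.08 and 1.20. Its relative CCN1 had 18.7 FPKM in control cells, 30.1 with 2 µM and 24.6 with 4 µM, so it was highest at 2 µM. GADD45A, a stress-induced gene (log2 fold 1.35 at 4 µM), with LATS2 and AMOTL2, made up the other higher members. IGFBP3, whose product binds and sequesters insulin-like growth factors, had a log2 fold of -2.92, and ARHGEF17, a gene of a guanine nucleotide exchange factor, had 10.0 FPKM at 4 µM, against 26.9 FPKM in the control (log2 fold -1.34). LATS2 and AMOTL2 stand in both the Hippo and the target list.

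**Figure D3:**
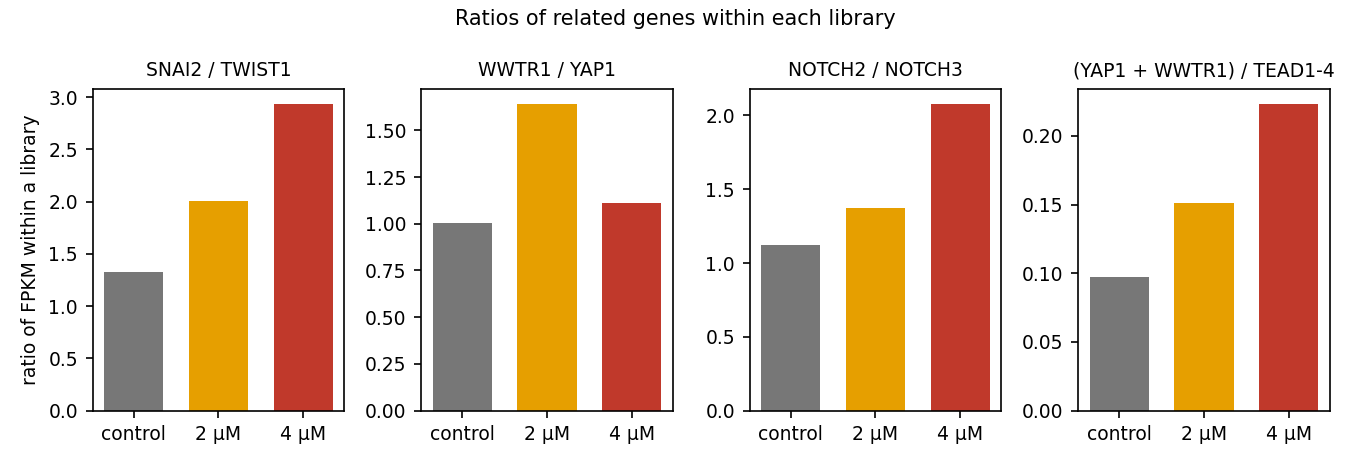
Ratios of FPKM within each library for SNAI2 over TWIST1, WWTR1 over YAP1, NOTCH2 over NOTCH3, and summed YAP1 and WWTR1 over summed TEAD1 to TEAD4, 1 bar per library in order of dose. The SNAI2, NOTCH2 and coactivator ratios are highest at 4 µM (2.93, 2.08 and 0.223), and WWTR1 over YAP1 is highest at 2 µM (1.64).

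The Notch receptors, which cut loose an intracellular activator when a neighbouring cell presents a ligand, also parted. NOTCH3 had 8.92 FPKM in the control, 5.71 FPKM at 2 µM and 5.27 FPKM at 4 µM. Its log2 folds against control were -0.56 and -0.66, so most of the difference was present at 2 µM. NOTCH2 had 10.0 FPKM in control cells, 7.83 with 2 µM and 10.9 with 4 µM, lower than the control at 2 µM (log2 fold -0.32) and slightly above it at 4 µM (log2 fold 0.12). The ratio of NOTCH2 to NOTCH3 within a library was 1.12 in control cells, 1.37 with 2 µM and 2.08 with 4 µM. NOTCH2 shares sequence with the NOTCH2NL copies, which had at most 1.14 FPKM each, so its value may include reads of theirs or lack some of its own. NOTCH1 was low, at 0.74 FPKM at 4 µM and 0.57 FPKM in the control, and NOTCH4 had a mean of 1.01 FPKM, so NOTCH2 and NOTCH3 were the main Notch receptors of these cells by transcript level.

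Among 27 genes of Notch ligands, other receptors, processing enzymes and nuclear partners, 20 were considered, with a median of -0.08 at 4 µM. None was higher and 1 was lower, beside 4.19% and 5.27% of all considered rows. After median-of-ratios scaling 1 was higher and 1 lower, with a median of 0.03, and as TPM or with a pseudocount of 0.1 there were 2 higher and 1 lower. LFNG, a Fringe enzyme that adds sugar to the receptors, had 0.64 FPKM at 4 µM, against 2.99 FPKM in the control (log2 fold -1.28). POFUT1, which fucosylates them, had a log2 fold of -0.76. The ligand gene JAG1 had 2.14 FPKM at 4 µM, against 0.85 FPKM in the control (log2 fold 0.76, and 1.16 as TPM). NUMBL, a relative of the Notch inhibitor NUMB, had a log2 fold of 0.94, and 1.07 after median-of-ratios scaling. Of 11 Notch targets 10 had a row and only 5 reached the filter, with a median of -0.63 at 4 µM (-0.13 without the filter). By the size rule 1 was lower and none higher, beside 5.27% and 4.19% of all considered rows. HES1, a classic target and repressor, had 4.35 FPKM at 4 µM, against 10.6 FPKM in the control (log2 fold -1.12), and did not pass after median-of-ratios scaling (-0.99). Its relative HEY1 had 25.7 FPKM at 4 µM, against 19.5 FPKM in the control (log2 fold 0.38). CCND1, the cyclin D1 gene, had a log2 fold of -0.72 and NRARP, a feedback inhibitor of Notch, -0.63.

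Of the structural members, the receptor was higher and the filament and matrix genes were not. CD44, the hyaluronan receptor gene, had 13.6 FPKM in the control, 21.1 FPKM at 2 µM and 27.2 FPKM at 4 µM. Its log2 folds against control were 0.59 and 0.95. At 4 µM 95.2% of considered rows lay below it. It passed the size rule with median-of-ratios scaling (1.09) and not as deposited. CD44 is known for variant exons, and a single value per gene cannot tell its isoforms apart. FN1 had 45.9 FPKM in control cells, 35.0 with 2 µM and 34.7 with 4 µM, so its log2 folds against control were -0.38 and -0.40, with little between the doses (-0.01, and 0.14 after median-of-ratios scaling). CD44 amounted to 0.297 of FN1 in control cells, 0.602 with 2 µM and 0.784 with 4 µM.

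VIM had 981 FPKM in the control, 835 FPKM at 2 µM and 840 FPKM at 4 µM. Its log2 folds of -0.23 and -0.22 were small, and the one at 4 µM was -0.07 after median-of-ratios scaling. The antisense row VIM-AS1 had 10.7 FPKM in control cells, 9.56 with 2 µM and 11.3 with 4 µM, and since strand use is unstated, its reads and those of VIM may be mixed. Among 11 considered genes of intermediate filaments and lamins the median was -0.19 at 4 µM. Beside 4.19% of all considered rows higher and 5.27% lower, none was higher and 1 was lower. This was LMNB2, a B-type lamin gene, at 28.9 FPKM at 4 µM, against 60.4 FPKM in the control (log2 fold -1.04), and it did not pass after median-of-ratios scaling (-0.89) or upper-quartile scaling (-0.99). The neuronal filament genes NEFL and PRPH had log2 folds of -0.93 and -0.88, and the lamin gene LMNB1 had -0.54.

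Receptors and linkers of fibronectin and hyaluronan were divided, with a median of 0.00 at 4 µM. Of the 20 considered 2 were higher and 3 lower, beside 4.19% and 5.27% of all considered rows. TNC, the gene of the matrix protein tenascin C, had 2.03 FPKM in control cells, 2.79 with 2 µM and 9.76 with 4 µM (log2 fold 1.83 at 4 µM), and the integrin gene ITGB3 had 3.22 FPKM in control cells, 4.72 with 2 µM and 9.65 with 4 µM (log2 fold 1.34). HAS2, which makes the CD44 ligand hyaluronan, had 14.8 FPKM in control cells, 7.22 with 2 µM and 4.26 with 4 µM (log2 fold -1.59). Of the hyaluronan receptor genes, CD44 was higher at 4 µM (log2 fold 0.95, short of the size rule) and HMMR lower (-0.70). The syndecan gene SDC1 had a log2 fold of -1.69 and the thrombospondin gene THBS1, whose product binds matrix and integrins, -1.44.

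**Figure D4:**
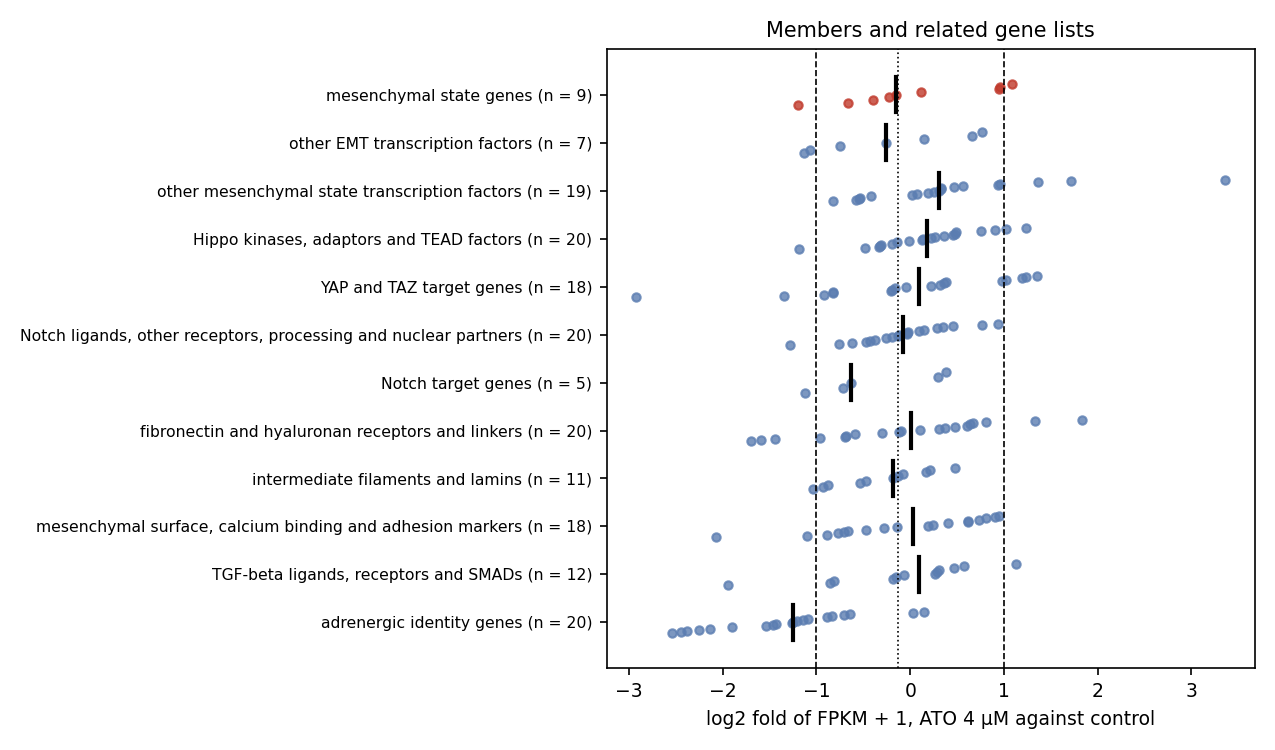
Log2 fold of FPKM + 1 at ATO 4 µM against the control for each considered gene, in the 9 members (red, top) and in 11 related lists, 1 point per gene. Black bars are list medians, dashed lines the size rule and the dotted line the median of all considered rows. The adrenergic list lies to the left (median -1.25), and the members span from -1.19 to 1.08. The list of genes shared with fibroblasts, which is not drawn, had a median of -1.68.

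Other genes of the mesenchymal program also went both ways. Among 29 further transcription factors tied to that state 19 were considered, with a median of 0.30 at 4 µM. By the size rule 3 were higher and none lower, beside 4.19% and 5.27% of all considered rows. As TPM and after median-of-ratios scaling 5 were higher and none lower. The 3 higher as deposited were the AP-1 genes FOSL1 (log2 fold 3.36) and FOSL2 (1.37) and the small MAF gene MAFF (1.71). JUN (0.96) and NR3C1 (0.94) joined them after median-of-ratios scaling (1.10 and 1.07) and as TPM (1.04 and 1.13). Of the 19, 14 had log2 folds above 0 and 5 below 0, and the lowest was that of the AP-1 gene JUNB (-0.82). At 2 µM FOSL1 alone of this list passed the rule (log2 fold 1.86), where 1.16% of all considered rows were higher. Of 18 considered surface, calcium binding and adhesion genes none was higher and 2 were lower (median 0.02), beside 4.19% and 5.27% of all considered rows. After median-of-ratios scaling 2 were higher and 1 lower (median 0.17), and as TPM 1 was higher and 2 lower. ENG, the endoglin gene, had 82.7 FPKM in control cells, 39.9 with 2 µM and 18.9 with 4 µM (log2 fold -2.07 at 4 µM), and the growth factor receptor gene PDGFRB had 56.0 FPKM in control cells, 32.2 with 2 µM and 25.6 with 4 µM (log2 fold -1.10, and -0.95 after median-of-ratios scaling). S100A11, a calcium-binding protein gene, had a log2 fold of 0.95, and the protease inhibitor gene TIMP1 one of 0.91, and these were the higher ones after median-of-ratios scaling (1.10 and 1.06). CDH2, the N-cadherin gene, had 30.7 FPKM at 4 µM, against 53.1 FPKM in the control (log2 fold -0.77).

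TGF-beta, a known inducer of SNAI2 and FN1, was represented by 12 considered genes of ligands, receptors and SMADs, with a median of 0.10 at 4 µM. By the size rule 1 was higher and 1 lower, beside 4.19% and 5.27% of all considered rows. TGFB3 had 6.16 FPKM in control cells, 1.498 with 2 µM and 0.864 with 4 µM (log2 fold -1.94 at 4 µM), while SKIL, an inhibitor of SMAD signalling, had 11.6 FPKM in control cells, 13.4 with 2 µM and 26.4 with 4 µM (log2 fold 1.13). The inhibitory SMAD gene SMAD6 had a log2 fold of -0.86 and the latent TGF-beta binding protein gene LTBP1 -0.81.

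Most genes of the adrenergic program were lower. Of 20 considered adrenergic identity genes 14 were lower (13 after median-of-ratios scaling) and none higher at 4 µM, beside 5.27% and 4.19% of all considered rows. Their median log2 fold was -1.25, against -0.15 for the 9 mesenchymal genes and -1.68 for the 5 considered genes shared with fibroblasts. HAND1, a helix-loop-helix factor gene of sympathetic cells, had 106 FPKM in control cells, 52.8 with 2 µM and 18.6 with 4 µM (log2 fold -2.44 at 4 µM), and SLC6A2, the noradrenaline transporter gene, had 8.04 FPKM in control cells, 3.44 with 2 µM and 0.90 with 4 µM (log2 fold -2.25). Both were lower at each step of dose, as TWIST1 was, while WWTR1 and CD44 were higher at each step. The 5 considered genes shared with fibroblasts were lower beside the adrenergic ones. By the size rule 4 of the 5 were lower (3 after median-of-ratios scaling), beside 5.27% of all considered rows. Their part in these values was not tested.

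Between the doses, 4 µM against 2 µM, none of the 9 members passed the size rule, beside 2.48% of considered rows (1.14% higher and 1.34% lower). By 1.5-fold YAP1 was higher and TWIST1 lower, 2 of 9 beside 14.5% of rows (4.73% higher and 9.72% lower). By log2 fold YAP1 (0.84) and NOTCH2 (0.44) were the highest and TWIST1 (-0.78) and SNAI2 (-0.29) the lowest, and the median was 0.01, against -0.12 for all rows. The 2 comparisons with control share the control library, so a high or low control value enters both, whereas this one does not use it. For WWTR1 and CD44 the log2 folds between the doses were 0.38 and 0.35.

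The rows most like TWIST1 and WWTR1 in their pair of log2 folds against control were found by distance in that plane. For TWIST1 they were PRR16, PCOLCE, a gene of procollagen processing, and BTBD2, at distances of 0.03 each. For WWTR1 they were SBDS, a gene of ribosome maturation, GPR176 and the glutamine transporter gene SLC1A5, at 0.02, 0.03 and 0.03. Within a distance of 0.1 lay 45 of 11056 rows with a symbol for TWIST1 and 38 for WWTR1, and 3 libraries cannot rank such neighbours.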

How the data were processed

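RNA of SK-N-BE(2) cells was made into paired-end TruSeq libraries, per the labels' protocols, and the authors deposited FPKM per gene for 3 libraries, per the file headers. No source used here states the aligner, the counting tool, the annotation or the use of strand. GRCm38 and mm10, which are mouse builds, stand in the submitters' processing notes, but the symbols are human, so no coordinates of the rows are printed.

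Log2 ratios of FPKM + 1 were computed with Python 3.11.15, pandas 2.3.3 and numpy 2.4.6 for rows averaging 1 FPKM or more, and the code was tested on simulated data. Single libraries leave no residual degrees of freedom, so no test was made. The members and the 16 lists were chosen with earlier results of these data known. Named were all members, up to 4 genes per list that differed most at 4 µM, a fixed set of EMT, TEAD, CCN, AP-1 and Notch genes with MYCN and CDH2, and the 3 rows nearest to each member past the size rule. ITGB3, NOTCH4, NR3C1, JUNB, HMMR, DBH, FAP, COL1A2, POSTN and PTPRC were named after their values were seen. Some genes that this rule names are not reported here. Promoter windows came from RefSeq (GRCh38.p14). Depth was inferred from the most frequent product of FPKM and length among low genes with 1 transcript in GENCODE 29. Alternatives covered pseudocount, filter, scaling and size rule.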

Additional observations from a re-analysis of the deposited data

How the results depend on the processing

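At 4 µM against control, 2 of 9 members passed the size rule as deposited. With a pseudocount of 5 the count was 0 (TWIST1 -0.90, WWTR1 0.67). With a mean of at least 10 FPKM 1 passed, TWIST1, since WWTR1 fell under the filter. With TPM and with median-of-ratios scaling 4 passed, because CD44 (1.04 and 1.09) and YAP1 (1.14 and 1.08) joined. With a 1.5-fold rule 5 passed, beside 27.9% of rows. Shares of all rows were counted only as deposited, so counts at other settings of pseudocount, filter and scaling have none beside them. Under TPM the 1 was added after scaling, which equals 0.247 FPKM at 4 µM and 0.256 FPKM in the control. The 1.5-fold rule gave 2 at 2 µM (beside 9.01% of rows) and 2 between the doses (14.5%). TPM gave 1 between the doses, YAP1 at 1.04. Median-of-ratios scaling took the median of all rows at 4 µM to -0.0033 and that of the members to -0.0034, and the members' median between the doses to 0.17. Upper-quartile scaling of the considered rows and omitting the filter moved no count of members beyond 1.5 times. Among the lists, upper-quartile scaling took the filament and lamin count from 1 lower to none (LMNB2) and the YAP and TAZ targets from 4 higher to 5. A pseudocount of 5 left 10 of 20 adrenergic genes lower and, in the EMT, Hippo, both Notch, filament and TGF-beta lists, no gene past the rule. The sign of single members turned for the 4 µM against 2 µM values of FN1 (0.08 with TPM, 0.07 by upper quartile and 0.14 by median of ratios) and NOTCH3 (0.04 with median-of-ratios scaling), and for no member against control. The members' median between the doses, 0.01 as deposited, was -0.0018 without the filter and -0.012 with the filter at 10 FPKM. List medians turned sign as well, for the Hippo list to -0.14 with the filter at 10 FPKM, for the Notch ligand and processing list to 0.03 with median-of-ratios scaling, for the fibronectin and hyaluronan list to -0.01 with a pseudocount of 0.1, for the surface and adhesion list to -0.01 with a pseudocount of 5 and -0.02 without the filter, and for the TGF-beta list to -0.11 without the filter. Depth limits PRRX1 most, and with single libraries the spread between cultures is unknown. No paired analysis was possible because each group had 1 library.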
